A study of Mus musculus with 24 samples.

Results

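The genes described here are 10 genes of the calcium store and of calcium handling in heart muscle: Casq1, Casq2, Hrc, Ryr2, Fkbp1b, Atp2a1, Atp2a2, Pln, Cacna1c and Slc8a1. They were chosen by name, with earlier results of these data known. Every probe set that the array annotation pairs with one of them was taken. This gave 22 of the 45037 probe sets that are not controls. Pln has 3 probe sets, Atp2a2 has 6, Ryr2 has 2, Slc8a1 has 4 and Cacna1c has 2, and the other 5 genes have 1 each. No filter on low values was applied, so all 22 were tested.

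The study measured liver and heart RNA of SV129 mice that lack PPARα (knock-out, KO) and of wild-type (WT) SV129 mice, killed at 10 to 12 weeks of age at ZT14 (zeitgeber hour 14). Each sex and genotype had 12 mice, and each array held RNA pooled from 4 of them, so a group is 3 pools. In the heart the male KO pools are 4 to 6 and the male WT pools 1 to 3, and the female KO pools are 10 to 12 and the female WT pools 7 to 9. The 24 arrays thus form 8 groups, and the pool is the replicate. PPARα is a nuclear receptor that switches on genes of fatty acid oxidation, and the labels describe the animals as knock-outs without naming the deleted exons or a tissue.

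With each heartbeat, calcium that enters through the L-type channel of the surface membrane opens ryanodine receptors in the sarcoplasmic reticulum, and the calcium released from this store makes the muscle contract. SERCA pumps then return calcium to the store, where calsequestrin binds it, and the sodium-calcium exchanger carries the remainder out of the cell. Cardiac muscle mainly uses the calsequestrin encoded by Casq2 and the pump encoded by Atp2a2, whereas Casq1 and Atp2a1 encode the forms typical of fast skeletal muscle.

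The promoters of Casq1, Casq2 and Atp2a1 are shown because Casq1 passed the test and Casq2, the heart form, did not, and because Atp2a1 is the member that 1 pool decides. The sequences are RefSeq's for GRCm38.p6, a C57BL/6J reference and not the SV129 strain, from 250 bases before to 50 bases after each annotated start, read 5′ to 3′ along the gene. Casq1 lies at chr1:172219846-172220145 on the minus strand, Casq2 at chr3:102086165-102086464 on the plus strand and Atp2a1 at chr7:126463024-126463323 on the minus strand. Capitals mark matches to the motifs searched.
Casq1: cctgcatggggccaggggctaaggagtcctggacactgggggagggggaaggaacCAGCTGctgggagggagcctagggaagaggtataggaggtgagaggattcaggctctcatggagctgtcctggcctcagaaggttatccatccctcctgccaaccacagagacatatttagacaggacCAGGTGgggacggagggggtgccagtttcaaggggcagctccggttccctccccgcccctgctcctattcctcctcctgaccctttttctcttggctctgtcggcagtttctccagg
Casq2: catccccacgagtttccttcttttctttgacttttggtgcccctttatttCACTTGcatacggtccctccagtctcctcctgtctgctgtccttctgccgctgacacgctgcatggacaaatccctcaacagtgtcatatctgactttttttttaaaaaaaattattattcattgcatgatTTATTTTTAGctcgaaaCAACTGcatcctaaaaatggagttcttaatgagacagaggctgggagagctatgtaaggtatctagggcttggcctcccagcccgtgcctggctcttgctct
Atp2a1: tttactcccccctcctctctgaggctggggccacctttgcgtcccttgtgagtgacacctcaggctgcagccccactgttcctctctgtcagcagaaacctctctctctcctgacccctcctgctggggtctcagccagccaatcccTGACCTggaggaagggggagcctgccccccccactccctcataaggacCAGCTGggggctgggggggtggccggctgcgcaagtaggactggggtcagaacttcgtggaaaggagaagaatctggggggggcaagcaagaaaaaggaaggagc

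The motifs, searched on both strands, were the E-box CANNTG bound by muscle regulatory factors, the nuclear receptor motif AGGTCA, the direct repeat of that motif spaced by 1 base, which PPARα binds with its partner, and the MEF2 site. No match overlapped another. The Casq1 window held 2 E-boxes and none of the other motifs. The Casq2 window held 2 E-boxes and 1 MEF2 site. The Atp2a1 window held 1 E-box and 1 AGGTCA motif, which reads TGACCT on the strand shown. Among 32841 RefSeq promoter windows of the same length, 72.3% held an E-box, 16.3% AGGTCA, 3.19% a MEF2 site and 0.0396% the direct repeat. These matches describe letters in a window and not binding. Windows were found for 9 of the 10 genes, and Atp2a2 was not among them.

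Values are log2 RMA intensities, a measure of probe brightness after background correction and summary by the authors, and a difference of 1 is a doubling of intensity. The median of all probe sets lay between 3.01 and 3.07 on the heart arrays. The highest value on each heart array lay between 13.64 and 13.97. The Ppara transcript, the targeted gene, was lower in KO hearts, at 6.27 ± 0.08 in male KO against 7.35 ± 0.14 in male WT pools and 6.38 ± 0.18 in female KO against 7.47 ± 0.17 in female WT pools (SD, n = 3 each). Heart pool 4, labelled male KO, stood apart from its group: its Xist value was 6.62, against 2.80 to 3.12 in the other male pools and 7.32 to 8.03 in the female pools other than pool 10. Its Y-linked Eif2s3y value was 4.49, against 4.64 to 5.67 in the other male pools. Eif2s3y was 3.34 in female KO pool 10, against 1.96 to 2.497 in the other female pools. Y-linked Uty (3.08 in pool 4, 2.67 in pool 10) and Kdm5d (2.75 and 2.49) lay within the range of the other pools of the labelled sex. Kdm5d was 2.72 to 2.83 in the other male and 2.48 to 2.76 in the other female pools. These ranges overlap, so Kdm5d cannot tell the sexes apart here. Uty was 2.91 to 3.22 in the other male and 2.59 to 2.67 in the other female pools, near the array median. Male results are therefore given with and without pool 4. Female results include pool 10 unless stated, and leaving it out is among the alternatives described at the end. Without pool 10, 98 of all probe sets were called in female hearts, against 140 with all pools. The summed level of 10 cardiomyocyte markers was 69160 in pool 4, within the 65309 to 72455 of the other 11 hearts.

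Casq1, the calsequestrin of fast skeletal muscle, was the only member that passed the test, and it rose in KO hearts of both sexes. Its values were 7.64, 7.998 and 7.67 in male KO pools, against 6.58, 5.77 and 6.23 in male WT pools. They were 7.15, 7.45 and 7.01 in female KO pools, against 5.61, 5.93 and 5.55 in female WT pools. Every KO pool lay above every WT pool of its sex, by at least 1.06 in males and 1.08 in females. The means were 7.77 ± 0.20 in male KO and 6.19 ± 0.41 in male WT hearts, and 7.20 ± 0.22 in female KO and 5.70 ± 0.20 in female WT hearts (SD, n = 3 each). The male difference was 1.58 (95% interval 1.20 to 1.95), a 2.99-fold rise, with an adjusted p of 0.000199 in limma. The female difference was 1.51 (95% interval 1.13 to 1.88), a 2.84-fold rise, with an adjusted p of 0.000321 in limma.

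Without pool 4 the male rise was 1.64, or 3.12-fold, with 2 KO pools left and a limma adjusted p of 0.000804. Averaged over the sexes, Casq1 rose by 1.54 (95% interval 1.28 to 1.81; limma adjusted p = 2.47e-06), and by 1.57 without pool 4. The female difference less the male one was -0.07, with an interval from -0.60 to 0.46 and a limma adjusted p of 0.996. That interval leaves room for a difference between the sexes of up to 0.60 in size, so equal responses are not shown. Among all probe sets called higher, Casq1 had the largest rise of 21 in male hearts and the second largest of 29 in female hearts.

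**Figure D1:**
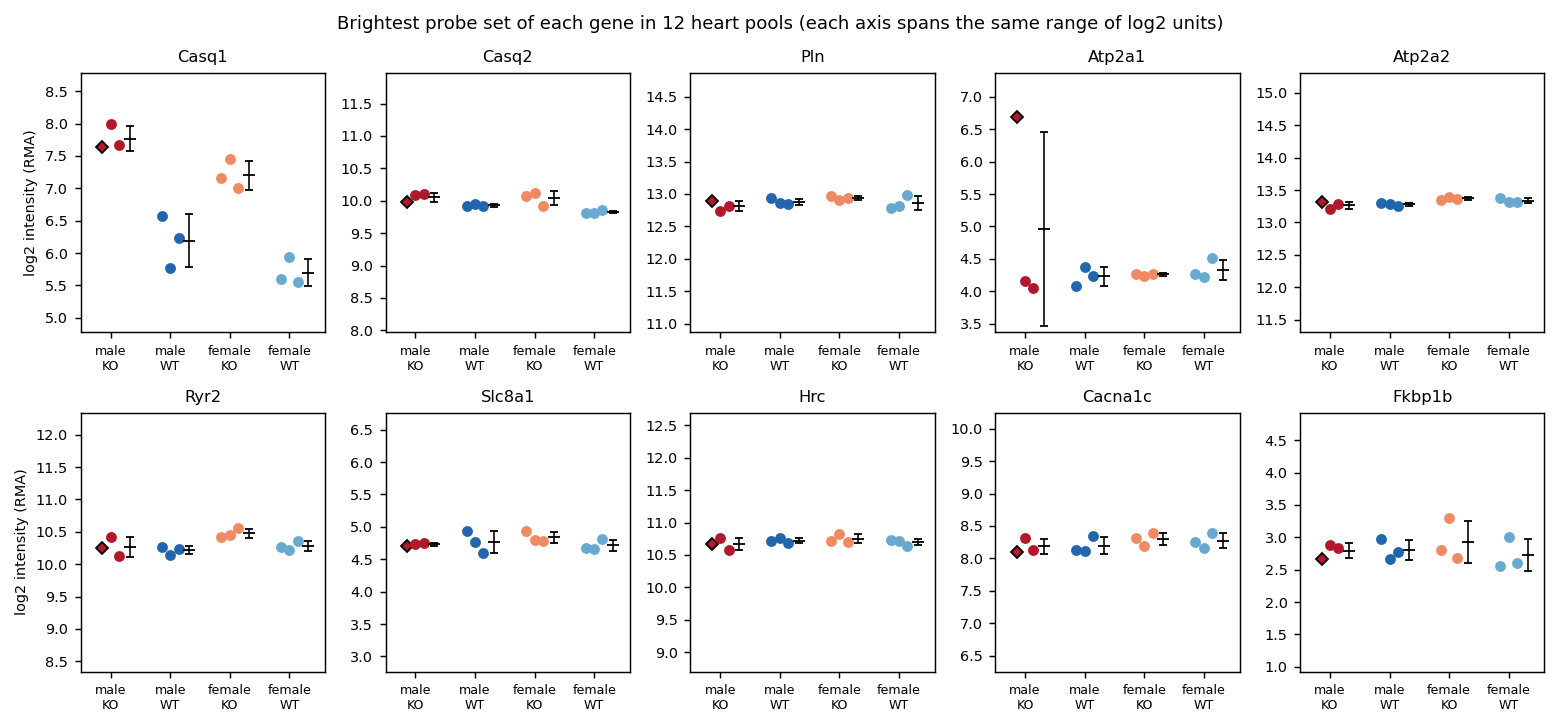
Log2 intensity of the brightest probe set of each of the 10 genes (vertical axis, the same span of log2 units in every panel) in the 12 heart pools, by sex and genotype (horizontal axis). Points are pools, the diamond with a black edge is male KO pool 4, and the bars are the mean and SD of 3 pools; in the Casq1 panel all KO pools lie above the WT pools of their sex, and in the Atp2a1 panel pool 4 lies alone at 6.69.

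Casq1 was 1 of 22 member probe sets called in male hearts, where 124 of 45037 (0.275%) were called over all probe sets and 0.0466% were called higher. It was also the 1 of 22 called in female hearts, where 0.311% of all probe sets were called and 0.0644% were called higher. For the mean of both sexes it was again 1 of 22, beside 0.528% of all probe sets, and without pool 4 in males 1 of 22 beside 0.246%. At an unadjusted limma p under 0.05 there were 2 of 22 in male hearts, beside 5.8% of all probe sets. There were 4 of 22 in female hearts, beside 6.33%, and 3 of 22 for the mean of both sexes, beside 6.64%. For the difference between the sexes, limma called 0 of the 22 and 0% of all probe sets. Here 0 of the 22 had an unadjusted p under 0.05, beside 2058 (4.57%) of all. The median difference over the 22 was -0.01 in male and 0.06 in female hearts, beside -0.0008 and -0.003 over all probe sets. The genes were chosen with earlier results of these data known. These shares, and those of pools that do not overlap given below, are therefore descriptions and not tests.

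Casq2, the calsequestrin of heart muscle, did not pass the test in either sex; its probe set is of the kind (_s_at) that can match more than 1 transcript. Its values were 9.98, 10.09 and 10.10 in male KO pools, against 9.91, 9.95 and 9.92 in male WT pools. They were 10.08, 10.12 and 9.92 in female KO pools, against 9.81, 9.82 and 9.85 in female WT pools. The groups did not overlap in either sex, but the differences were small, at 0.13 in males (limma adjusted p = 0.933) and 0.21 in females (limma adjusted p = 0.645). Averaged over the sexes the difference was 0.17 (95% interval 0.05 to 0.29), with a limma adjusted p of 0.437. Without pool 4 the male difference was 0.17 and the mean of both sexes 0.19 (limma adjusted p = 0.837 and 0.387).

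Hrc, the histidine-rich calcium-binding protein of the store lumen, did not pass the test in either sex. It measured 10.67, 10.76 and 10.57 in male KO pools, against 10.71, 10.77 and 10.68 in male WT pools, and its difference was -0.05 in males and 0.05 in females. The intervals ran from -0.22 to 0.11 in males and from -0.12 to 0.22 in females, so changes of that size cannot be told from none. Without pool 4 the male difference was -0.06.

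Ryr2, the release channel of heart muscle, did not pass the test in either sex. Its brighter probe set measured 10.25, 10.42 and 10.12 in male KO pools, against 10.26, 10.14 and 10.24 in male WT pools, and the groups overlapped. It measured 10.41, 10.45 and 10.56 in female KO pools, against 10.27, 10.21 and 10.36 in female WT pools, which did not overlap. The female difference was 0.20 (95% interval 0.01 to 0.39), with an unadjusted p of 0.0448 and a limma adjusted p of 0.773. The other Ryr2 probe set overlapped between the female groups, with a difference of 0.27. In males the brighter probe set differed by 0.05 with all pools and by 0.05 without pool 4. Fkbp1b, which encodes the FKBP12.6 protein bound to Ryr2, lay between 2.56 and 3.29 in all hearts, around the array median, where this array can hardly measure a change.

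Atp2a1, the SERCA pump of fast skeletal muscle, was high in 1 pool. It measured 6.69, 4.16 and 4.04 in male KO pools 4, 5 and 6, against 4.08, 4.37 and 4.24 in male WT pools. It measured 4.27, 4.23 and 4.27 in female KO pools, against 4.27, 4.21 and 4.51 in female WT pools. Apart from pool 4, KO and WT values overlapped. The male difference was 0.73 (limma adjusted p = 0.933) with pool 4 and -0.13 (95% interval -0.37 to 0.10) without it. The female difference was -0.07, with an interval from -1.04 to 0.89 when pool 4 enters the shared spread and from -0.28 to 0.14 when it does not.

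Atp2a2, the SERCA pump of heart muscle, did not pass the test with any of its 6 probe sets. The brightest differed by -0.01 in males (95% interval -0.16 to 0.14), by -0.03 in males without pool 4, and by 0.03 in females. The third brightest separated the genotypes in both sexes by a small step: it measured 9.96, 9.97 and 9.95 in male KO pools, against 9.93, 9.90 and 9.81 in male WT pools. In females it measured 10.16, 10.18 and 10.21 in KO pools, against 10.00, 10.01 and 10.08 in WT pools, and the limma adjusted p was 0.966 in males and 0.79 in females. The other probe sets of the same gene did not show this step in both sexes.

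Pln, phospholamban, which restrains the SERCA pump of the heart, did not pass the test. Its brightest probe set measured 12.89, 12.74 and 12.82 in male KO pools, against 12.93, 12.86 and 12.84 in male WT pools. It measured 12.97, 12.91 and 12.93 in female KO pools, against 12.79, 12.81 and 12.98 in female WT pools, and the differences of -0.06 and 0.08 had limma adjusted p values of 0.979 and 0.963. The other 2 Pln probe sets were lower in male KO pools without overlap, at 12.85, 12.79 and 12.85 in KO against 12.92, 12.88 and 12.89 in WT, and at 12.70, 12.73 and 12.78 in KO against 12.85, 12.80 and 12.82 in WT. Their differences were -0.07 and -0.09 (limma adjusted p = 0.977 and 0.96), and they overlapped in females. Pln and the brightest Atp2a2 probe sets lie close to the highest values of the arrays, and whether a rise could still register there was not tested.

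Cacna1c, the pore of the L-type channel, differed by -0.01 in males and 0.03 in females at its brighter probe set, and did not pass the test. Its dimmer probe set was 5.94, 6.30 and 6.31 in male KO pools, against 6.25, 6.46 and 6.55 in male WT pools. That difference was -0.23, with a limma adjusted p of 0.872. Without pool 4, the pool at 5.94, it was -0.11 (limma adjusted p = 0.932). The male difference at the brighter Cacna1c probe set was 0.03 without pool 4. Slc8a1, the sodium-calcium exchanger, differed by -0.04 in males (-0.02 without pool 4) and 0.12 in females at its brightest probe set. Its second brightest probe set was lower in male KO pools at 4.58, 4.17 and 4.20, against 4.60, 4.74 and 4.42 in male WT pools. That difference was -0.27 (limma adjusted p = 0.849), and -0.40 without pool 4 (limma adjusted p = 0.444), and it was -0.01 in females. The last 2 Slc8a1 probe sets lay between 2.24 and 2.82, below the array median.

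**Figure D2:**
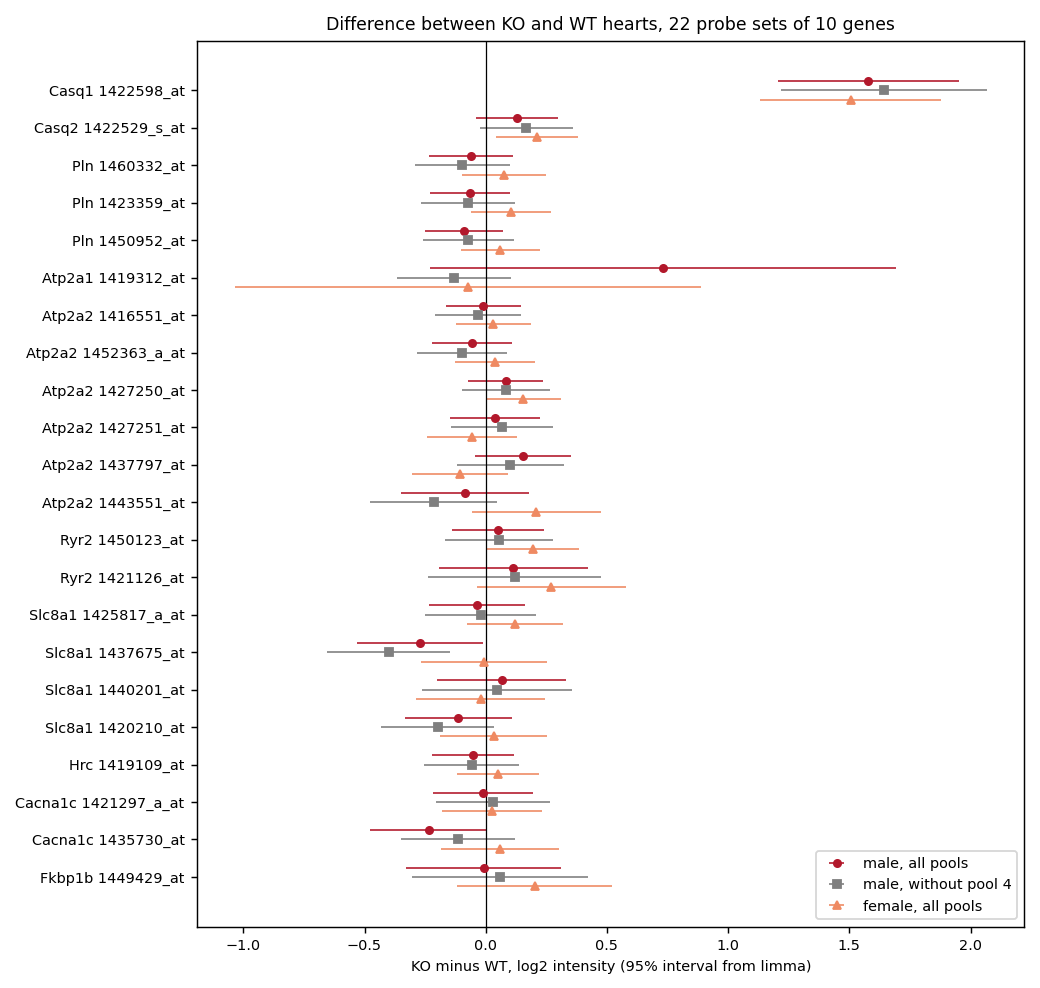
Difference between KO and WT hearts (horizontal axis, KO minus WT, log2 intensity) with its 95% interval from limma, for the 22 probe sets of the 10 genes (vertical axis), in males with all pools, in males without pool 4 and in females. The Casq1 intervals lie above 1 in all 3 settings, and the wide Atp2a1 interval of males narrows around 0 without pool 4.

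For Casq2, Hrc, Ryr2, Atp2a2, Pln and Cacna1c at their brightest probe sets, the 95% intervals of the difference together ran from -0.23 to 0.30 in males. This is 0.851 to 1.23 times WT. With pool 4 left out, the male range was -0.29 to 0.36, or 0.817 to 1.28 times WT. In females the intervals ran from -0.18 to 0.39, which is 0.882 to 1.31 times WT. Other probe sets of these genes had wider intervals. They reached -0.48 (Cacna1c) and 0.42 (Ryr2) in males, and 0.58 (Ryr2) in females. Slc8a1 is not in these ranges, and its brightest probe set had intervals of -0.23 to 0.16 in males and -0.08 to 0.32 in females. KO and WT pools did not overlap for 5 of 22 probe sets in males and 5 of 22 in females, beside 10.6% and 11.5% of all probe sets. The 5 in males were 3 higher in KO and 2 lower, both of Pln, and the 5 in females were all higher. Without pool 4, 8 of 22 did not overlap in males, 3 higher and 5 lower, beside 21% of all probe sets. They separated in the same direction in both sexes for 3 of 22, beside 1.35% of all probe sets, and these 3 were Casq1, Casq2 and the third brightest Atp2a2 probe set, all higher in KO. In bulk tissue, fewer cells of a type and less RNA per cell cannot be told apart.

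**Figure D3:**
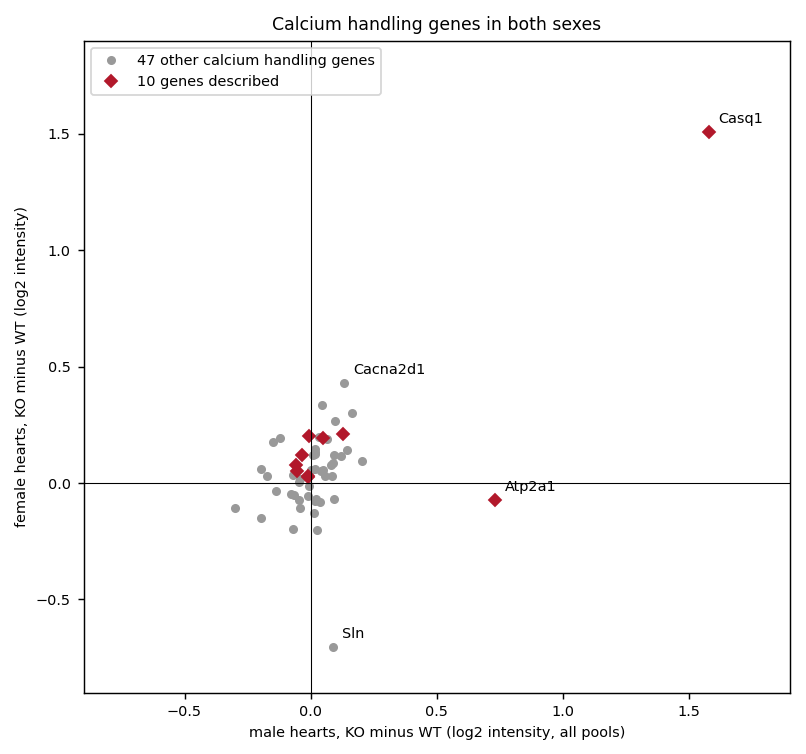
Difference between KO and WT in female hearts (vertical axis) against male hearts with all pools (horizontal axis), both as KO minus WT in log2 intensity, with diamonds for the 10 genes at their brightest probe set and circles for 47 other calcium handling genes. Casq1 lies apart at 1.58 in males and 1.51 in females, Atp2a1 at 0.73 in males and -0.07 in females, and Sln low in females at -0.71.

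Casq1 is a gene of skeletal muscle, so 16 markers of fast or general and 3 of slow skeletal muscle were read beside it. The summed level of the 16 was 694 in pool 4, against 296 to 438 in the other 11 hearts, and 9 of the 16 were highest in pool 4, 5 of them by more than 1 log2 unit. Tnnc2 measured 5.90 and Mylpf 5.70 in pool 4, and Myh1 5.22 against 2.14 to 2.43 in the other hearts. Casq1 measured 7.64 in pool 4, against 7.998 in pool 5 and 7.67 in pool 6. Without pool 4 the summed level of the 16 was 418 to 438 in male KO pools, against 324 to 342 in male WT pools. In females it was 382 to 423 in KO pools, against 296 to 307 in WT pools. The sum adds linear intensities, so the brightest genes weigh most in it. The median level of the 16 was 3.32 to 3.44 in male KO pools without pool 4, against 3.06 to 3.24 in male WT pools. It was 3.20 to 3.28 in female KO pools and 3.13 to 3.24 in female WT pools, which overlapped. The median difference of the 16 in males was 0.52 with pool 4 and 0.09 without it, and in females it was 0.08.

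Of the 16 fast or general markers, 2 were called in male hearts, with and without pool 4, beside 0.275% and 0.246% of all probe sets. In female hearts 2 were called, beside 0.311%. For the mean of both sexes 3 were called, with and without pool 4, beside 0.528% and 0.522%. Of the 3 slow markers, 1 was called, Tnnt1, in male hearts and for the mean of both sexes. All of those called were higher in KO. Myot, myotilin of the Z-disc, rose by 0.58 in male KO hearts (limma adjusted p = 0.00605; 0.51 without pool 4) and by 0.96 in female KO hearts (limma adjusted p = 3.66e-05). Mybpc2, the fast myosin-binding protein C, rose by 0.55 in female KO hearts (limma adjusted p = 0.0333), a call lost without pool 8, 9, 10, 11 or 12. Its male difference of 0.50 had a limma adjusted p of 0.081. Averaged over the sexes, Mybpc2 passed under all 22 alternatives. Its rise was then 0.46 to 0.57, with limma adjusted p values up to 0.016. Tnnt1, slow troponin T, rose by 1.05 in male KO hearts (limma adjusted p = 0.000214; 0.98 without pool 4), and its female difference of 0.43 had an adjusted p of 0.284. Myl1, a fast myosin light chain, rose by 0.78 in male KO hearts (limma adjusted p = 0.0103; 0.60 without pool 4; lost without pool 1 or 3), and its female difference was 0.09. The part that skeletal muscle RNA has in the rise of Casq1 was not tested.

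**Figure D4:**
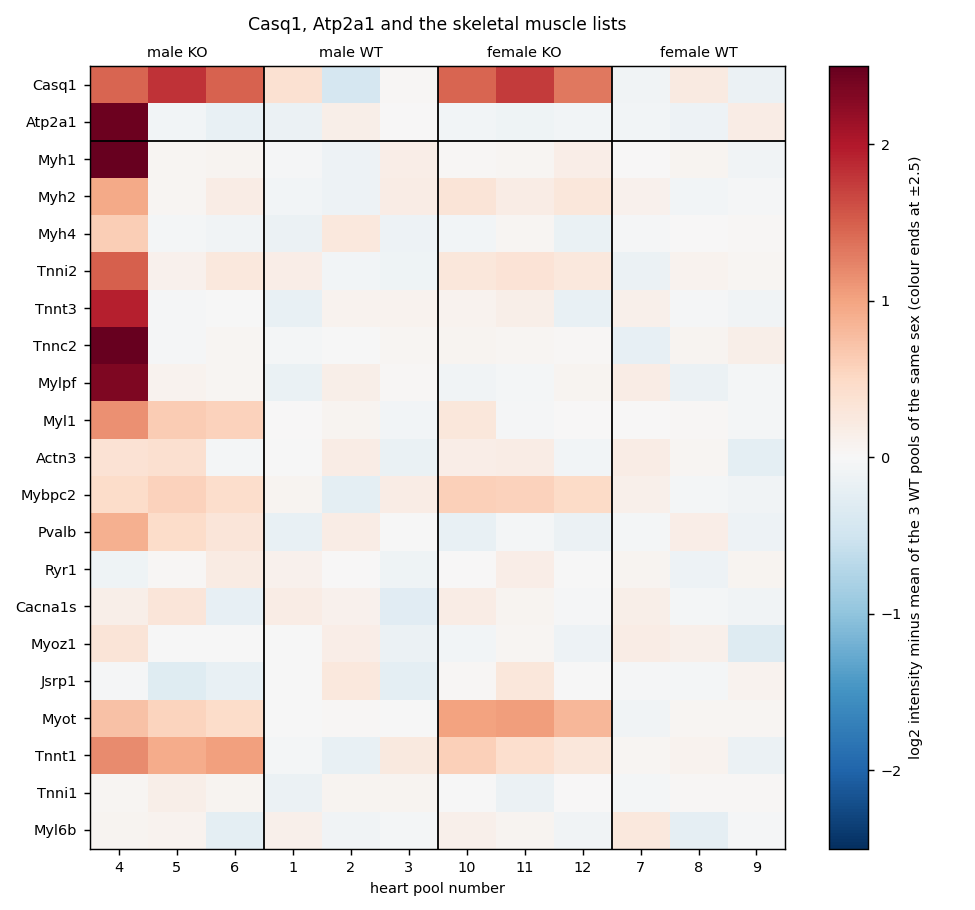
Colour shows log2 intensity minus the mean of the 3 WT pools of the same sex, for Casq1, Atp2a1 and the 19 skeletal muscle markers (rows) in the 12 heart pools (columns, by sex and genotype), red for higher and blue for lower. Atp2a1, Myh1, Tnnc2 and Mylpf are dark red in male KO pool 4 alone, while Casq1 is red in all 6 KO pools.

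Across the 12 heart arrays the probe sets whose pattern was most like Casq1 were those of Mybpc2 (Pearson r = 0.950), Car14, a carbonic anhydrase (0.932), and Slc41a1, a magnesium transporter (0.927), and the same 3 genes led without pool 4. For Atp2a1 they were Tnnc2 (0.984), Scgb1a1 (0.984) and Mylpf (0.977), and none of these 3 remained among the first 3 without pool 4. These correlations are descriptions: the 12 arrays fall into KO and WT groups and share 1 normalization.

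Of 56 other calcium handling genes, 47 were measured, and the others were not analysed here. In male hearts limma called 0 of the 47, beside 0.275% of all probe sets called. There was 1 at an unadjusted limma p under 0.05, beside 5.8% of all probe sets, and the median difference was 0.02. Without pool 4 limma also called 0 of the 47 in males, beside 0.246% of all probe sets. In female hearts it called 0 higher and 1 lower, beside 0.311% of all probe sets called, with 7 at an unadjusted p under 0.05 (6.33% of all probe sets), and the median difference was 0.03. The gene called lower was Sln, sarcolipin, a small inhibitor of SERCA pumps that is abundant in the atria. Sln measured 9.52, 9.15 and 9.16 in female KO pools, against 10.11, 9.98 and 9.86 in female WT pools, and these did not overlap. The difference was -0.71 (limma adjusted p = 0.0225), and this call was lost without pool 7, 8, 11 or 12, with adjusted p values up to 0.158. In males Sln measured 10.18, 9.91 and 9.72 in KO pools, against 9.72, 9.83 and 9.99 in WT pools, which overlapped. The male Sln difference was 0.09 with all pools and -0.03 without pool 4. The difference of its KO effect between the sexes, -0.79, had a limma adjusted p of 0.986. For the mean of both sexes limma called 0 of the 47, beside 0.528% of all probe sets. Here 8 of the 47 had an unadjusted limma p under 0.05, beside 6.64% of all probe sets.

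Markers of the atrium were read beside Sln. The summed level of the 6 atrial markers, Sln among them, was 6884 to 9016 in female KO pools, against 9581 to 10128 in female WT pools. Myl7, the atrial regulatory light chain, differed by -0.65 (limma adjusted p = 0.0159; lost without pool 7, 8, 9, 11 or 12), Myl4 by -0.49 (0.0994) and Nppa by -0.02 (0.998). In males the sum was 11540 in KO pool 4 and 10147 to 10175 in the other KO pools, against 8853 to 10103 in WT pools. The part of atrial tissue in the Sln difference was not tested.

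In the liver of the same animals Casq1 lay between 2.11 and 2.41 on every array, below the liver array median of 2.46, and its differences were 0.01 in males and -0.01 in females. Limma called 0 of the 22 probe sets in male liver, with 0 at an unadjusted p under 0.05, beside 0.344% and 8.51% of all probe sets. It called 0 of the 22 in female liver, with 1 at an unadjusted p under 0.05, beside 0.48% and 5.69% of all probe sets. Levels were not compared between the tissues, whose arrays appear to have been normalized apart.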

How the data were processed

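RNA from hearts and livers was hybridised to Affymetrix 3′ arrays, 1 pool of 4 animals per array. The authors deposited log2 intensities made with RMA, per the submitters' processing notes; its version is not given in the sources used here. Genes were taken from the platform annotation: 34945 probe sets have 1 gene, 932 several and 9160 none. The 64 controls were left out. The 12 heart and 12 liver arrays were fitted apart with limma 3.58.1 in R 4.3.3 (lmFit, eBayes, 4 group means, two-sided), with Benjamini-Hochberg adjustment over 45037 probe sets and a threshold of 0.05. The labels do not say whether the pools were processed separately throughout, so p-values measure the spread between these pools. On simulated data, shifts of 1 were recovered for 92.5% of changed probe sets in male and 94% in female hearts, and shifts of 0.5 for 61.2% and 53.7%. For the difference between the sexes, shifts of 1 were recovered for 86.6% and of 0.5 for 5.97%. The simulated noise was normal and independent for each probe set and array. Effects shared across an array, or a deviating pool such as pool 4, were not simulated. A gene with several probe sets is led by its brightest in the heart. Other calcium genes are named where they passed the threshold. The members and lists were chosen with earlier results of these data known. Alternatives were other gene summaries, filters, normalizations, variance models, weights and left-out pools. The number of arrays limits the precision.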

Additional observations from a re-analysis of the deposited data

Results flagged for a closer look

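In 4 of 88 groups of 6 pools of 1 tissue and genotype (4.55%), 1 pool lay far from the others by Dixon's criterion; chance does so in about 1 in 20 groups, and these groups mix the sexes. Atp2a1 was 6.69 in heart KO pool 4, and the nearest KO pool was at 4.27. Fkbp1b was 3.29 in heart KO pool 11, and the nearest KO pool was at 2.88. The second brightest Slc8a1 probe set was 2.46 in liver WT pool 3, and the nearest WT pool was at 2.30. Fkbp1b was 2.499 in liver WT pool 3, and the nearest WT pool was at 2.16.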

How the results depend on the processing

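All 136 recomputed counts of called member probe sets stayed within 1.5 times the reported count, over 11 settings and 12 left-out pools. The reported counts were 1, for Casq1, or 0, so this means only that the same calls were made. Casq1 passed the threshold under every alternative run, with a rise of 1.37 to 1.77 in male hearts (adjusted p up to 0.00427), 1.38 to 1.62 in female hearts (up to 0.00439) and 1.44 to 1.64 for both sexes (up to 5.63e-05). No other member passed under any alternative; the lowest limma adjusted p was 0.444 in males, 0.229 in females and 0.0763 for both sexes. Among the values of uncalled members the sign changed in 20 of 455 in males, 14 of 455 in females and 50 of 434 for both sexes. The Atp2a1 difference in males ran from -0.13 to 1.19. Myot in males was lost without pools 4 and 10 (adjusted p = 0.0729), Mybpc2 in females also without pools 4 and 10, and Myl1 in males also with only the compared arrays. Sln averaged over the sexes passed only without pools 4 and 10 (adjusted p = 0.0291), and Cacna2d1, a channel subunit, passed with trended variance in females (0.0155) and for both sexes (0.0214); these causes were not tested. Over all probe sets, the 124 calls of male hearts were 73 genes by brightest probe set and 76 by gene mean. The 155 calls of male liver were 267 with only the compared arrays, and 83 to 233 with 1 pool left out. The 216 of female liver were 79 with only the compared arrays (31.6% higher, against 41.7%), 358 with array weights (52.8% higher) and 138 and 140 without pools 8 and 11. No paired analysis was possible because KO and WT pools of a tissue carry different pool numbers. Genes near the array median, such as Fkbp1b, are limited by signal.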
